A study of Mus musculus with 9 samples.

Results

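The collagen genes were followed across embryonic stem (ES) cells, ES cells depleted of the transcription factor Max, and primordial germ cells (PGCs) on 9 single-colour expression arrays, with 3 arrays in each of 3 groups. A gene was taken as a collagen when the RefSeq symbol of its probe had the form Col, a number, a, a number. By that rule 44 mouse genes qualify, and 42 of them had a probe, among 32450 genes or identifiers on the array. Col6a3 and Col12a1 had none. The control ES group was the VV3 line, 1 male ES line of strain 129SV with a Venus fluorescent reporter under the Vasa (Ddx4) promoter, given the non-silencing AllStars siRNA and sorted 3 days later for live single cells. The Max knockdown group was the same line given siRNA against Max and sorted after 3 days for live single cells that were also positive for Venus, so the siRNA and the gate differed together. The culture medium of both contained LIF, KSR (14%) and FBS (1%). The PGC group came from male embryos at E13.5, bred as MCH x C57BL6/J (Oct4ΔPE-GFP Tg), whose genital ridges were dissociated with trypsin and sorted for GFP, the germ cell reporter. The study's text calls the 3 arrays of a group biological replicates, and p-values measure the spread between these arrays. The sources used here do not say whether embryos were pooled.

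Collagens are extracellular matrix proteins built from 3 chains wound into a triple helix. Fibrillar collagens form the fibrils of connective tissue, type IV collagens form the sheet-like network of basement membranes, and type VI collagens form beaded filaments. Fibril-associated collagens coat fibrils, and transmembrane collagens stay in the cell surface. New chains are hydroxylated and folded in the endoplasmic reticulum with the help of the chaperone Hsp47, trimmed outside the cell, cross-linked and later degraded by matrix metalloproteinases. In the early embryo type IV collagen is a main product of cells that lay down basement membrane, and fibrillar collagens are products of mesenchymal cells.

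Between 58.2% and 67.6% of spots were well above background on an array. Values below are log2 processed signals minus the 75th percentile of the same array, so a negative value lies under that percentile, and levels of different genes are not comparable because each has its own probe. Arrays of one group correlated at r from 0.991 to 0.995 over all genes, r was 0.966 to 0.974 between control and knockdown arrays, and 0.866 to 0.882 between ES and PGC arrays. Max read 2.84, 2.73 and 2.85 on the control arrays and 0.59, 0.83 and 1.13 on the knockdown arrays, a 3.89-fold lower signal (log2 -1.96, SE 0.14, adjusted p = 2.93e-05, limma). It read 3.77, 3.65 and 3.57 on the PGC arrays, all above the control arrays, though the PGC difference of 0.85 was -0.10 when arrays were scaled on spike-in RNAs. Ddx4, whose promoter drives the sorting reporter, rose by 2.64 on the knockdown and by 3.71 on the PGC arrays (adjusted p = 6.67e-06 and 6.26e-08, limma). Knockdown cells were gated on that reporter and control cells were not, so the Ddx4 rise on the knockdown arrays was not independent of the sort. Pou5f1, a marker of both cell types, differed by 0.04 and -0.11 (adjusted p = 0.821 and 0.431, limma).

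Of the 42 collagens on the array, 23 were well above background on all 3 control arrays, 23 on all 3 knockdown arrays and 24 on all 3 PGC arrays. These are 54.8%, 54.8% and 57.1% of the family, against 69.7%, 67.6% and 64.5% of all genes with a symbol. The 28 collagens detected on every array of at least 1 group were tested. The other 14 were not tested, and 8 of those were well above background on no array: Col4a3, Col5a2, Col6a6, Col8a1, Col10a1, Col19a1, Col24a1 and Col28a1. The 6 detected on some arrays were Col4a5, Col8a2, Col9a3, Col11a1, Col11a2 and Col15a1. The filter favours genes that are bright in 1 group, so counts over the 28 describe those genes and not the whole family. Col4a4 and Col6a4 passed it only through the knockdown arrays, Col17a1 only through the control arrays. Col9a1 and Col25a1 passed only through the PGC arrays. For these genes the filter itself favoured a difference in that direction.

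In the Max knockdown cells 9 collagens fell and 3 rose against control cells, and 16 did not pass the test. The threshold throughout was an adjusted p of 0.05 in limma, over 20443 genes. Called genes made up 40.1% of all genes tested, 21.9% lower and 18.2% higher, so the share of collagens called was near that of all genes. At 2-fold or more 7 collagens fell and 3 rose, where 11.1% of all genes were called at that size, 4.83% lower and 6.32% higher. The arrays of the groups did not overlap for 9 collagens on the lower and 4 on the higher side, against 54.1% of all genes, 30.7% lower and 23.4% higher. The median collagen difference was -0.11, against -0.065 for all genes. In PGCs 12 collagens fell, 10 rose and 6 did not pass against control cells, where 75.6% of all genes were called, 32.4% lower and 43.2% higher. At 2-fold or more 11 fell and 8 rose, against 40% of all genes, 20.2% lower and 19.8% higher. Arrays did not overlap for 12 lower and 11 higher collagens, against 78.5% of all genes, 33.5% lower and 45% higher. The median was 0.23 for collagens and 0.18 for all genes. Against knockdown cells 10 collagens fell, 8 rose and 10 did not pass in PGCs, where 76.3% of all genes were called, 31.4% lower and 44.9% higher. At 2-fold or more 7 fell and 4 rose, against 40.1% of all genes, 19.7% lower and 20.5% higher. For 10 lower and 8 higher collagens the arrays did not overlap, against 78.5% of all genes, 32.4% lower and 46.2% higher. The median was 0.0079 for collagens and 0.21 for all genes. The 3 comparisons share arrays, so each is given by its own values. The groups are bulk RNA, in which fewer cells of a type and less RNA per cell cannot be told apart.

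**Figure D1:**
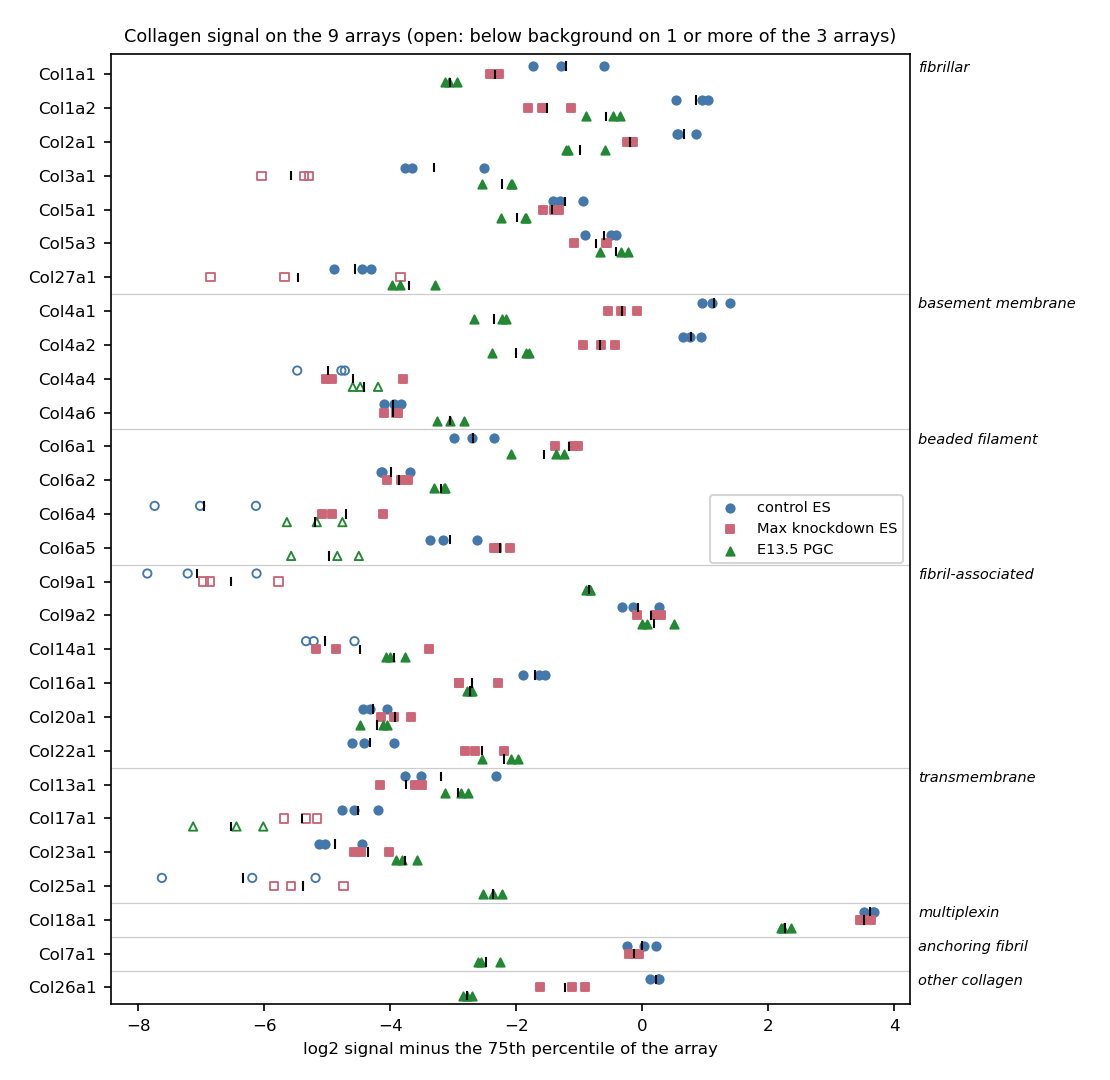
Signal of the 28 tested collagens on each of the 9 arrays, as log2 signal minus the 75th percentile of the array, ordered by collagen class; each symbol is 1 array, the black tick is the mean of 3, and open symbols mark a group in which fewer than 3 arrays were well above background. Col4a1, Col4a2 and Col26a1 form separate steps from control ES to knockdown ES to PGC arrays, and Col9a1 lies near -0.85 on the 3 PGC arrays and below -5.7 on all 6 ES arrays.

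Among the basement membrane collagens, Col4a1 and Col4a2, the chains of the most widespread type IV collagen, were high in control ES cells, lower in knockdown cells and lowest in PGCs. Their genes are neighbours that are read in opposite directions, and in RefSeq (GRCm38.p6) their start sites lie 22 bases apart, counting both start bases, with the first bases of each transcript overlapping the other. The stretch is shown because both genes moved together here. It lies at chr8:11312801-11312830, on the plus strand, and capitals run from the start of Col4a2 to the start of Col4a1, which is read from the other strand.
Col4a2 and Col4a1 starts: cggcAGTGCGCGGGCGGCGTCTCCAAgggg

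Col4a1 read 1.39, 0.94 and 1.10 on the control arrays, -0.088, -0.34 and -0.54 on the knockdown arrays and -2.22, -2.17 and -2.68 on the PGC arrays. The 3 groups did not overlap. It fell 2.76-fold in knockdown cells (log2 -1.47, SE 0.18, adjusted p = 0.000458, limma) and 11.3-fold in PGCs (log2 -3.50, SE 0.18, adjusted p = 4.29e-07, limma). Col4a2 read 0.93, 0.65 and 0.76 on control, -0.43, -0.65 and -0.94 on knockdown and -1.84, -1.80 and -2.39 on PGC arrays, again without overlap. Its signal fell 2.74-fold in knockdown cells (log2 -1.45, SE 0.19, adjusted p = 0.000538, limma) and 6.92-fold in PGCs (log2 -2.79, SE 0.19, adjusted p = 1.81e-06, limma). PGCs were also below knockdown cells, with differences of -2.04 for Col4a1 and -1.34 for Col4a2 (adjusted p = 1.15e-05 and 0.000183, limma). The level of a ratio between genes depends on their probes, so only its shift is compared, for pairs of partner chains chosen after their values were seen. The log2 ratio of Col4a1 to Col4a2 on the same array was 0.366 ± 0.0862 (SD, n = 3) in control cells, 0.353 ± 0.0425 in knockdown cells and -0.345 ± 0.0495 in PGCs. The ratio thus moved by -0.013 between control and knockdown cells (exact permutation p = 0.90) and by -0.711 between control cells and PGCs (exact permutation p = 0.10, the smallest that 3 arrays against 3 allow, and 0.15 after adjustment over the 12 ratio comparisons made).

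The other type IV chains did not follow them. Col4a6, a chain of the type IV network of some epithelia, read -3.93, -3.83 and -4.10 on the control, -4.10, -3.88 and -3.91 on the knockdown and -3.05, -3.26 and -2.83 on the PGC arrays. It was higher in PGCs by 0.91 and 0.91 against the control and knockdown arrays (adjusted p = 0.000223 and 0.000212, limma), but with spike-in scaling these differences were -0.044 and -0.056. Col4a4, a chain of the kidney filter, passed no test, with 0.41 in knockdown cells and 0.57 in PGCs (adjusted p = 0.375 and 0.153, limma). No array had its neighbour Col4a3 well above background, and Col4a5, the neighbour of Col4a6, was so on 1 PGC array.

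Of the 7 fibrillar collagens tested, 4 fell and none rose in knockdown cells, where 21.9% of all genes fell and 18.2% rose. Col1a2, which encodes the second chain of type I collagen, read 1.05, 0.95 and 0.54 on the control arrays, -1.13, -1.82 and -1.59 on the knockdown arrays and -0.36, -0.46 and -0.90 on the PGC arrays. The knockdown arrays were the lowest and the PGC arrays lay between, with no overlap. The fall was 5.13-fold in knockdown cells (log2 -2.36, SE 0.22, adjusted p = 0.000117, limma) and 2.67-fold in PGCs (log2 -1.42, SE 0.22, adjusted p = 0.000363, limma). PGCs were above knockdown cells by 0.94 (adjusted p = 0.00396, limma), which was -0.029 with spike-in scaling. Col1a1, the partner chain, read -0.60, -1.28 and -1.73 on control, -2.31, -2.28 and -2.42 on knockdown and -2.94, -3.07 and -3.14 on PGC arrays. It fell 2.19-fold and then further (log2 -1.13, SE 0.24, adjusted p = 0.00625 in knockdown cells; log2 -1.84, SE 0.24, adjusted p = 0.000123 in PGCs, limma), so the group order of the 2 chains differed. PGCs were below knockdown cells, with a difference of -0.71 (adjusted p = 0.0240, limma), and this call was lost without knockdown 1, knockdown 2, PGC 2 or PGC 3, at -0.70, -0.68, -0.70 and -0.67. The log2 ratio of Col1a1 to Col1a2 was -2.05 ± 0.35 (SD, n = 3) in control cells, -0.823 ± 0.361 in knockdown cells and -2.48 ± 0.209 in PGCs. The shift of 1.23 in knockdown cells reached an exact permutation p of 0.10, again the smallest possible (0.15 adjusted over the 12).

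Col3a1, the homotrimer of soft tissues, read -2.52, -3.65 and -3.77 on the control arrays, -5.29, -6.04 and -5.37 on the knockdown arrays and -2.08, -2.08 and -2.55 on the PGC arrays. In knockdown cells it was well above background on 1 of 3 arrays and 4.78-fold lower (log2 -2.26, SE 0.35, adjusted p = 0.00124, limma). This dim value was sensitive to background correction: it was -0.86 with normexp after replacing high local backgrounds and 0.17 with normexp as planned. PGCs were 10.1-fold above knockdown cells (log2 3.33, SE 0.35, adjusted p = 2.86e-05, limma), with normexp values of 1.62 and 0.59. Against control cells the PGC rise of 1.08 (adjusted p = 0.0193, limma) came from overlapping arrays. It was no longer called without control 2, control 3, PGC 1 or PGC 2, at 0.91, 0.85, 1.00 and 1.00, nor with spike-in scaling at 0.12.

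Col2a1, the cartilage collagen, read 0.57, 0.85 and 0.56 on control, -0.25, -0.15 and -0.18 on knockdown and -1.21, -0.60 and -1.18 on PGC arrays. It fell at each step without overlap (log2 -0.85, SE 0.17, adjusted p = 0.00440 in knockdown cells; log2 -1.66, SE 0.17, adjusted p = 2.49e-05 in PGCs, limma). Col5a1, which helps start fibrils, differed by -0.21 in knockdown cells (adjusted p = 0.325, limma) and fell by 0.76 on the log2 scale in PGCs (adjusted p = 0.00203, limma). Col5a3 passed no test, with differences from -0.13 to 0.33. Col27a1 read -4.90, -4.45 and -4.31 on control, -6.86, -3.84 and -5.68 on knockdown and -3.97, -3.29 and -3.85 on PGC arrays, and was well above background on 1 knockdown array. Its PGC excess over knockdown cells (log2 1.76, SE 0.64, adjusted p = 0.0321, limma) came from overlapping arrays and was lost when knockdown 1 (1.06), knockdown 4 (1.65) or any 1 of the 3 PGC arrays (1.55 to 1.89) was left out.

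The promoters of Col1a2 and Col3a1, fibrillar genes that fell in knockdown cells (Col3a1 not with normexp as planned), are shown from RefSeq (GRCm38.p6) as the 250 bases before the start site. They are followed by those of Col6a1, which rose, and Col9a1, which was high in PGCs and has 2 annotated starts. Capitals mark matches on either strand to CCAAT, to the GC box GGGCGG or to TATAAA. Col1a2 lies at chr6:4505368-4505617 (plus strand), Col3a1 at chr1:45311288-45311537 (plus), Col6a1 at chr10:76726045-76726294 (minus), and Col9a1 at chr1:24177360-24177609 and chr1:24194953-24195202 (both plus).
Col1a2: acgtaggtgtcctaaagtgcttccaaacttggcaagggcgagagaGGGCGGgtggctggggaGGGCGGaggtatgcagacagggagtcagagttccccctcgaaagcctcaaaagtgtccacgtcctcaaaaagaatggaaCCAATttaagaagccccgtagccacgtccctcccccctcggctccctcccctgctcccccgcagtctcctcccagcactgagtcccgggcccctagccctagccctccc
Col3a1: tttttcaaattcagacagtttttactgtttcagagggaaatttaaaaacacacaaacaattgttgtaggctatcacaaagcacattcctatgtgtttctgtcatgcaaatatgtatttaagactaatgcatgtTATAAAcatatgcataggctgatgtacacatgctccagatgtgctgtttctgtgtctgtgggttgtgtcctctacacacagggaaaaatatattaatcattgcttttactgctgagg
Col6a1: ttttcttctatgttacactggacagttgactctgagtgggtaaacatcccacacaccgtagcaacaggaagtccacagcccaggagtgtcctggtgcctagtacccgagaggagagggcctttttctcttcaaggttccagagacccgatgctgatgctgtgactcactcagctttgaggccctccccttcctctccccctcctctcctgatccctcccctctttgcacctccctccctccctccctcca
Col9a1 start 1: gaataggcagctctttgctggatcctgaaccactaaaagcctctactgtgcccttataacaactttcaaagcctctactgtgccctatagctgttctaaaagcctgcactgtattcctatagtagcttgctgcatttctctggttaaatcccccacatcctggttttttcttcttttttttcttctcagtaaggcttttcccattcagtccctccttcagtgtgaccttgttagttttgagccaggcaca
Col9a1 start 2: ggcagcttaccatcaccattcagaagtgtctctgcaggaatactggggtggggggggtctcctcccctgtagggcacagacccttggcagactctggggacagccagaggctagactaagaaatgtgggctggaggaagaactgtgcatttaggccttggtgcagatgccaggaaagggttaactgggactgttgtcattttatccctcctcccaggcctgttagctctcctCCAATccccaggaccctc

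Windows of 300 bases, from 250 before to 50 after the start, were listed for 35 collagens, 34 of them on the array, as 38 windows. The E-box CACGTG, the core sequence that Max binds with its partners, was in none of the 38, against 7.15% of 32851 windows of all genes. GCGGGAA, an E2F-type sequence, was in 2.63% against 4.60%. CCAAT was in 34.2% of collagen windows against 37.4% of all, TATAAA in 13.2% against 13.6%, and GGGCGG in 60.5% against 35.7%. Both strands were searched and none of these motifs contains another. The absence of a match says only that these letters are not in the window.

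Of the 4 type VI collagens tested, 2 rose and none fell in knockdown cells, where 18.2% of all genes rose and 21.9% fell. Col6a4, 1 of the 2, passed the detection filter only through the knockdown arrays, so its direction was not independent of the filter. Col6a1, the first chain of the filament, read -2.36, -2.99 and -2.70 on the control arrays, -1.01, -1.38 and -1.10 on the knockdown arrays and -1.37, -1.24 and -2.08 on the PGC arrays. Both other groups were above the control arrays. It rose 2.86-fold in knockdown cells (log2 1.52, SE 0.24, adjusted p = 0.00149, limma) and 2.17-fold in PGCs (log2 1.11, SE 0.24, adjusted p = 0.00260, limma), the latter 0.16 and not called with spike-in scaling. Col6a2, its neighbour on the chromosome and partner in the same filament, read -4.14, -4.14 and -3.68 on control, -4.06, -3.82 and -3.71 on knockdown and -3.14, -3.31 and -3.15 on PGC arrays. It differed by 0.12 in knockdown cells (adjusted p = 0.549, limma) and by 0.79 in PGCs (adjusted p = 0.00114, limma), but by -0.16 in PGCs with spike-in scaling. The log2 ratio of Col6a1 to Col6a2 was 1.31 ± 0.422 (SD, n = 3) in control cells and 2.70 ± 0.307 in knockdown cells, a shift of 1.39 (exact permutation p = 0.10, the smallest possible, and 0.15 adjusted over the 12).

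Col6a4 and Col6a5 encode chains that can take the place of the third chain of type VI collagen, whose own gene had no probe. Col6a4 was not well above background on any control array (-7.74, -7.02 and -6.13) and was on all 3 knockdown arrays (-4.93, -5.09 and -4.11), which makes it at least 2.10-fold higher there (adjusted p = 0.00353, limma). It was detected on 1 of 3 PGC arrays (-4.76, -5.17 and -5.64), at least 1.5-fold above control (adjusted p = 0.00467, limma). The measured PGC difference of 1.77 was 0.82 with spike-in scaling and 0.64 with normexp as planned, and was called in neither. At-least values set the mean of the brighter group against the lowest signal that counts as above background on each dim array, or the probe's own signal if higher. Col6a5 read -2.63, -3.36 and -3.16 on control, -2.36, -2.31 and -2.10 on knockdown and -5.58, -4.50 and -4.84 on PGC arrays. The knockdown arrays were all above the control arrays, but the difference of 0.80 was just outside the threshold (adjusted p = 0.0503, or 0.0225 with the slide as a block, limma). In PGCs, where 1 of 3 arrays was above background, it fell 3.79-fold below control (log2 -1.92, SE 0.28, adjusted p = 0.000239, limma) and its difference from knockdown cells was -2.72 (adjusted p = 2.71e-05, limma). On no array did a second probe of either gene rise well above background, and the mean of both probes gave -0.62 for Col6a5 in PGCs, which was not called.

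**Figure D2:**
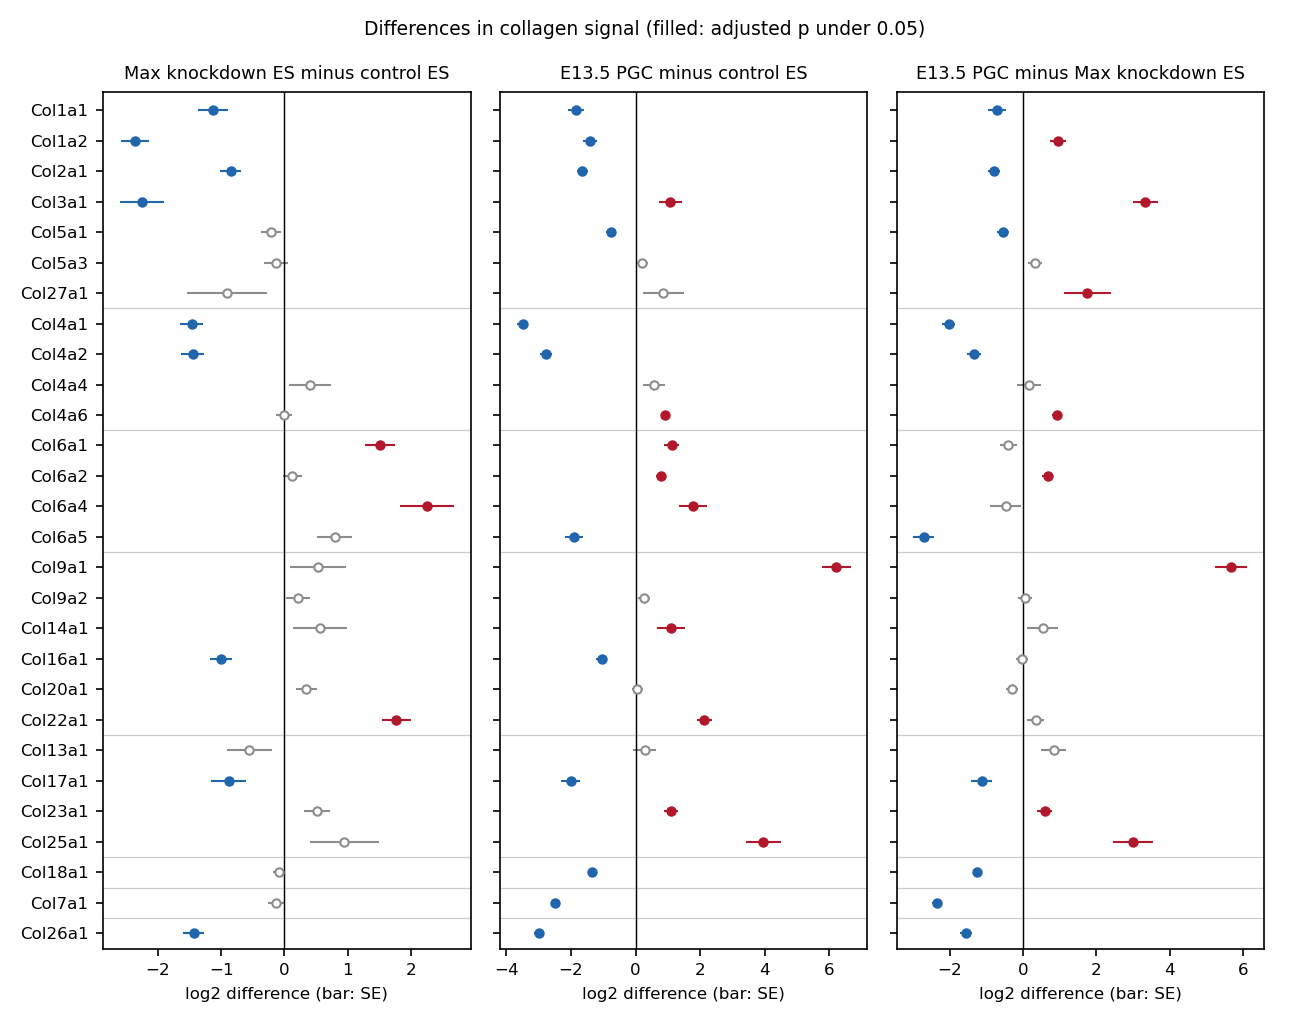
Log2 differences of the 28 tested collagens in the 3 comparisons, with bars for the standard error from limma; filled points passed an adjusted p of 0.05 and are red when higher and blue when lower in the group named first. In knockdown cells the filled points of the fibrillar and type IV classes, at the top, are all to the left of 0. Those of type VI, Col6a1 and Col6a4, are to the right, and Col6a4 passed the detection filter only through the knockdown arrays. PGC differences spread from -3.50 for Col4a1 to 6.22 for Col9a1, which passed the detection filter only through the PGC arrays.

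Among the fibril-associated collagens, 6 were tested. Col9a1, a chain of the type IX collagen of cartilage and eye, had the largest difference of the family. It read -0.83, -0.89 and -0.82 on the PGC arrays and was not well above background on any of the 6 ES arrays, which read -7.22, -7.86 and -6.12 for control and -6.86, -6.97 and -5.77 for knockdown cells. By this probe it was at least 30.5-fold higher in PGCs than in control cells and at least 23.7-fold higher than in knockdown cells (adjusted p = 2.66e-06 and 4.86e-06, limma). A second Col9a1 probe was above background on all PGC arrays, on 1 control array and on no knockdown array. It was at least 2.67-fold higher in PGCs than in control cells and at least 2.38-fold higher than in knockdown cells (adjusted p = 2.25e-05 and 7.18e-06 in a limma fit of single probes). Both Col9a1 probes passed the detection filter only through the PGC arrays, so the direction of these differences was not independent of the filter. Col9a2, the partner chain, read 0.26, -0.14 and -0.33 on control, 0.30, 0.21 and -0.085 on knockdown and 0.074, 0.51 and -0.0028 on PGC arrays and did not pass in any comparison, with a PGC difference from control of 0.26 (-0.69 with spike-in scaling; adjusted p = 0.241, limma). The third chain, Col9a3, was above background on 1 PGC array.

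Col22a1, a collagen of tissue junctions, read -3.95, -4.60 and -4.42 on control, -2.19, -2.81 and -2.65 on knockdown and -2.09, -2.54 and -1.98 on PGC arrays. Both other groups lay above control without overlap. It rose 3.42-fold in knockdown cells (log2 1.77, SE 0.23, adjusted p = 0.000563, limma) and 4.35-fold in PGCs (log2 2.12, SE 0.23, adjusted p = 3.80e-05, limma). The PGC rise was 1.17 with spike-in scaling and 1.25 with normexp as planned, and was called in neither. Knockdown cells and PGCs differed by 0.35 (adjusted p = 0.196, limma), or -0.62 with spike-in scaling. Col16a1, found near fibrils and at cell surfaces, fell by a similar amount in both: it read -1.65, -1.90 and -1.55 on control, -2.92, -2.91 and -2.29 on knockdown and -2.71, -2.78 and -2.73 on PGC arrays. The falls were log2 -1.01, SE 0.17, adjusted p = 0.00221 in knockdown cells and log2 -1.04, SE 0.17, adjusted p = 0.000550 in PGCs (limma). The knockdown value was 0.10 with normexp as planned, and the mean of its 3 probes gave -0.31 in PGCs, not called. Col14a1, which binds fibrils, read -5.22, -5.34 and -4.57 on control arrays, of which 1 was above background, and -4.01, -3.77 and -4.07 on PGC arrays. Its rise in PGCs (log2 1.10, SE 0.43, adjusted p = 0.0423, limma) was lost when control 1, control 2 or any 1 of the PGC arrays was left out (0.95 to 1.16). Col20a1 passed no test by its brighter probe without the slide block (PGC difference from control 0.051; knockdown difference 0.35, adjusted p = 0.133, or 0.0173 with the slide block, limma). A dimmer probe was above background on all 6 ES arrays and no PGC array and was at least 1.34-fold lower in PGCs than in control cells (adjusted p = 0.0250, limma fit of single probes).

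Of the 4 transmembrane collagens, Col25a1, known for its role where nerves meet muscle, read -2.22, -2.38 and -2.53 on the PGC arrays. It was above background on 1 control array (-7.63, -6.19 and -5.19) and no knockdown array (-5.84, -5.58 and -4.75). The measured PGC difference from control was 3.96 (SE 0.55, adjusted p = 0.000174, limma), and with the 2 control arrays under background at their floor the PGC signal was at least 8.88-fold above control. It was at least 7.68-fold above knockdown cells (adjusted p = 0.000919, limma). A second probe was above background on 2 PGC arrays and 1 control array and was at least 2.55-fold higher in PGCs than in control cells. Col25a1 passed the detection filter only through the PGC arrays, so the direction of its difference was not independent of the filter. Col17a1, the hemidesmosome collagen of epithelia, read -4.58, -4.77 and -4.20 on control, -5.69, -5.34 and -5.16 on knockdown and -6.44, -7.13 and -6.02 on PGC arrays, and 3, 1 and 0 of these were above background. It was at least 1.57-fold lower in PGCs than in control cells (adjusted p = 0.000185, limma). Col17a1 passed the filter only through the control arrays, which favoured a fall. Its fall in knockdown cells (log2 -0.88, SE 0.28, adjusted p = 0.0353, limma) was lost without control 1, control 3, knockdown 1 or knockdown 2, at -0.92, -0.72, -0.74 and -0.91, and was 0.81 with normexp as planned. Col23a1 rose by 1.10 in PGCs (adjusted p = 0.00136, limma; 0.15 and not called with spike-in scaling), from -5.14, -5.03 and -4.44 on control to -3.82, -3.58 and -3.91 on PGC arrays. Above knockdown cells it was higher by 0.58 (adjusted p = 0.0323, limma), or -0.39 with spike-in scaling, and this call was lost without knockdown 1, knockdown 2, PGC 1 or PGC 2, at 0.47, 0.53, 0.61 and 0.49. Another Col23a1 probe was above background on 3 control, 1 knockdown and 2 PGC arrays and passed no test. It gave 0.28 in PGCs against control and 0.35 against knockdown cells (adjusted p = 0.453 and 0.351, limma fit of single probes). In knockdown cells that probe differed by -0.069 (adjusted p = 0.887, limma fit of single probes). Col13a1 passed no test, with differences of -0.56 in knockdown cells and 0.28 in PGCs.

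Col18a1, a basement membrane proteoglycan whose cleaved end is endostatin, read 3.51, 3.66 and 3.68 on control and 3.46, 3.49 and 3.62 on knockdown arrays, which overlapped, and 2.20, 2.36 and 2.23 on PGC arrays. It fell 2.56-fold in PGCs (log2 -1.36, SE 0.09, adjusted p = 1.70e-06, limma) and differed by -0.093 in knockdown cells (adjusted p = 0.450, limma). A second probe read 3.43, 3.52 and 3.52 on control and 2.87, 2.88 and 2.95 on knockdown arrays, a fall of 0.59 on the log2 scale (adjusted p = 0.00154, limma fit of single probes). In PGCs that probe differed by -0.82 from control and by -0.23 from knockdown cells (adjusted p = 5.07e-05 and 0.0466, limma fit of single probes). The first probe gave -1.26 in PGCs against knockdown cells. The difference between the 2 probes was not tested. Col7a1, the anchoring fibril below epithelia, read 0.22, -0.24 and 0.026 on control, -0.12, -0.21 and -0.05 on knockdown and -2.61, -2.26 and -2.57 on PGC arrays. It fell 5.58-fold in PGCs (log2 -2.48, SE 0.14, adjusted p = 6.60e-07, limma), with control and knockdown arrays overlapping. Col26a1, a small collagen described from testis and ovary, read 0.12, 0.25 and 0.26 on control, -1.11, -1.63 and -0.92 on knockdown and -2.77, -2.85 and -2.71 on PGC arrays. The 3 groups did not overlap. It fell 2.70-fold in knockdown cells (log2 -1.43, SE 0.17, adjusted p = 0.000334, limma) and 7.95-fold in PGCs (log2 -2.99, SE 0.17, adjusted p = 6.22e-07, limma).

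Control and knockdown arrays shared slides: controls 1 and 2 with knockdowns 1 and 2 on one, and control 3 with knockdown 4 on another, while the PGC arrays had slides of their own. With slide as a block, 16 collagens were called in knockdown cells, 7 higher and 9 lower. Those called without the block kept their call and direction, and Col6a5, Col9a1, Col20a1 and Col23a1 were added as higher (adjusted p = 0.0225, 0.0433, 0.0173 and 0.00961, limma). The Col9a1 probe was above background on none of these ES arrays, so no difference between them can be read from it. Col23a1 was added by its brightest probe, and the other detected probe gave -0.069 without the block. Over all genes the slide block raised the share called from 40.1% to 45.6%, 25.2% lower and 20.3% higher. Within the first slide 12 were called, 4 higher and 8 lower, where 29.7% of all genes were called. Within the second, with 1 array a group, 5 passed, 2 higher and 3 lower, where 10.9% of all genes did. The spread for that slide came from the arrays that share a group and a slide elsewhere, so its lone arrays are assumed to vary like those. In the second slide the differences were -2.14 for Col1a2, -1.64 for Col4a1, 1.60 for Col6a1 and -1.61 for Col3a1. With slide as a random block 21 collagens were called in PGCs against control and 16 against knockdown cells. Over all 20443 genes 14764 and 14977 were called in these fits.

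The scale of the PGC comparisons rested on the percentile. With scaling on the 7 usable spike-in probes the median of all genes in PGCs moved from 0.18 to -0.775 against control and from 0.21 to -0.756 against knockdown cells, and rises made up 1161 of 8623 and 1001 of 8278 calls over all genes in place of 8837 of 15451 and 9170 of 15593. On that scale 2 collagens were higher and 12 lower in PGCs than in control cells, and 3 were higher and 13 lower than in knockdown cells. Col9a1 and Col25a1 were at 5.27 and 3.01 against control, and with normexp as planned at 2.85 and 1.61. In knockdown cells spike-in scaling left 4 collagens called, 2 higher and 2 lower, with rises at 71.4% of 1006 calls over all genes in place of 45.3% of 8205. The differences themselves moved little there, for example to -2.34 for Col1a2 and 1.53 for Col6a1.

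**Figure D3:**
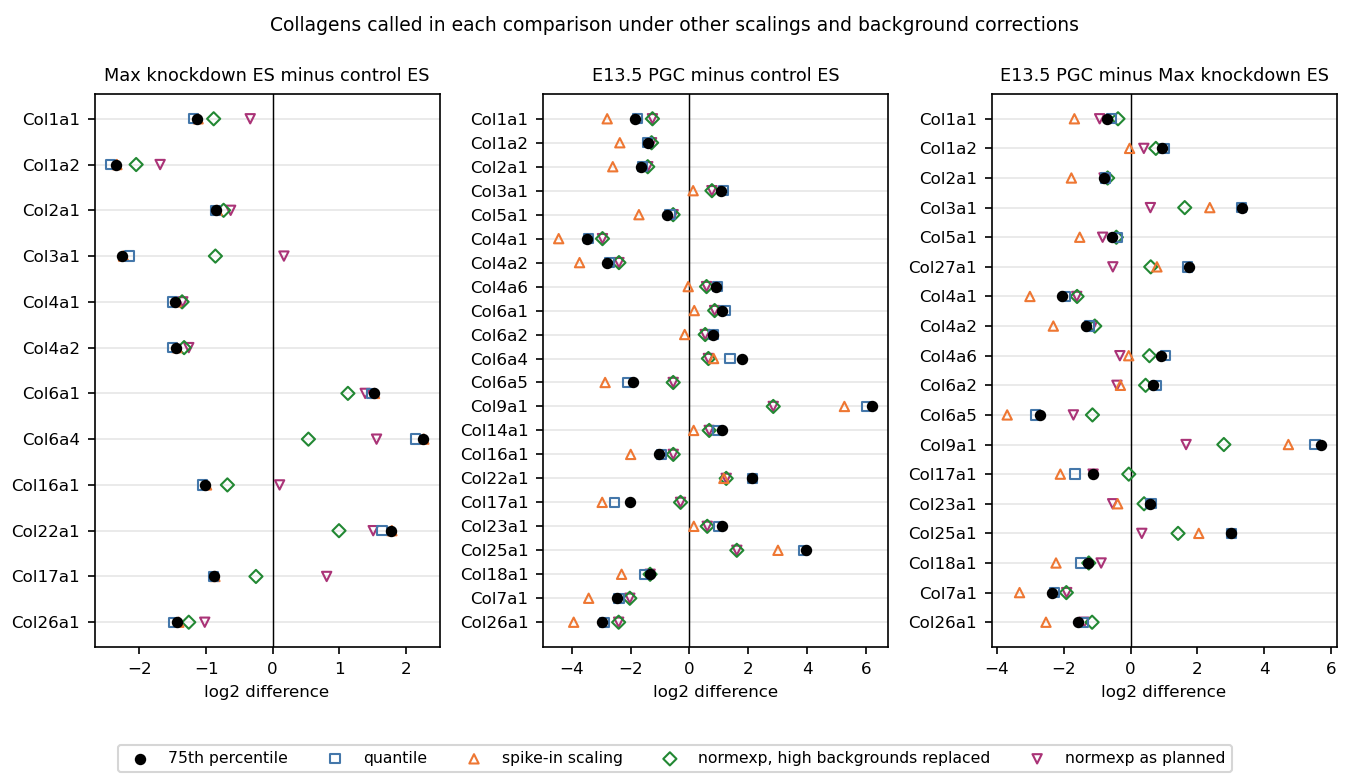
Log2 difference of each collagen called in a comparison, under the 75th percentile (filled black), quantile normalization, spike-in scaling, and normexp background correction as planned and with high local backgrounds replaced. In knockdown cells the spike-in points lie on the black ones, in the PGC panels they lie about 1 unit to the left, and the normexp points of dim genes such as Col3a1, Col17a1 and Col9a1 lie nearer to 0 than the black ones or cross it.

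The genes that make, modify, cross-link, degrade and sense collagen were taken as 78 named genes, of which 76 had a probe and 61 were tested. In knockdown cells 25 fell and 4 rose, with a median of -0.36 against -0.065 for all genes, where 21.9% of all genes were lower and 18.2% higher. In PGCs 36 fell and 9 rose against control, with a median of -0.93 against 0.18, where 32.4% were lower and 43.2% higher. Against knockdown cells 31 fell and 16 rose in PGCs, with a median of -0.47 against 0.21, where 31.4% of all genes were lower and 44.9% higher.

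Of 23 biosynthesis genes in the endoplasmic reticulum, 10 fell and 1 rose in knockdown cells, where 21.9% of all genes fell and 18.2% rose. Serpinh1, which encodes the collagen chaperone Hsp47, read 2.53, 2.25 and 2.27 on control, 1.25, 0.77 and 0.82 on knockdown and 1.88, 1.98 and 1.87 on PGC arrays. It fell 2.65-fold in knockdown cells (log2 -1.41, SE 0.14, adjusted p = 0.000167, limma) and differed by -0.44 in PGCs (adjusted p = 0.0197, limma). The PGC call was lost in 4 alternative settings and kept in 15. Fkbp10, a prolyl isomerase that works with Hsp47, differed by -1.08 and -3.11 from control in knockdown cells and PGCs (adjusted p = 0.000308 and 1.04e-07, limma). Plod3, a lysyl hydroxylase, differed by -0.83 in knockdown cells (adjusted p = 0.000266, limma), and Plod2 by 0.41, which did not pass (adjusted p = 0.0906, limma). P4ha1 and P4ha2, catalytic chains of prolyl 4-hydroxylase, differed in knockdown cells by -0.38 and 0.47 without passing (adjusted p = 0.153 and 0.0912, limma) and fell in PGCs, at -1.91 and -3.15 (adjusted p = 2.22e-05 and 1.24e-06, limma). The 1 gene that rose in knockdown cells was Colgalt2, which adds galactose to collagen, by 2.96 (adjusted p = 0.000591, limma). It was not well above background on any PGC array, an at-least difference of -3.75 on the log2 scale from knockdown cells. In PGCs 13 of the 23 fell and 2 rose against control, Crtap, a partner of prolyl 3-hydroxylase, among the falls at -1.92. Of all genes 32.4% fell and 43.2% rose in that comparison.

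Of 7 tested genes that process the precursor, 4 fell and none rose in knockdown cells, and 4 fell and 2 rose in PGCs. Of all genes 21.9% fell and 18.2% rose in knockdown cells, and 32.4% fell and 43.2% rose in PGCs, both against control. Bmp1, the protease that removes the C-terminal propeptide, differed by -1.04 and -2.13 (adjusted p = 0.00142 and 4.19e-06, limma). Its enhancer Pcolce differed by 0.16 in knockdown cells (adjusted p = 0.604, limma) and fell by 3.56 in PGCs, and the related Pcolce2 differed by -0.56 and -1.98, both called. The Pcolce2 call in knockdown cells was lost in 5 alternative settings and kept in 17. Furin, a proprotein protease, fell in knockdown cells (-0.69, adjusted p = 0.00501, limma). Adamts14, which trims the N-terminal end, was -1.89 in PGCs against knockdown cells (adjusted p = 4.95e-05, limma).

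Of 4 tested cross-linking genes, 2 fell in knockdown cells, Pxdn at -1.09 and Tgm2 at -0.65 (adjusted p = 0.000459 and 0.00283, limma). Pxdn encodes peroxidasin, the enzyme that cross-links type IV collagen, and Tgm2 a transglutaminase. In PGCs 3 fell, with Loxl2, a lysyl oxidase, at -6.36 (adjusted p = 1.55e-08, limma) from 2.79, 3.03 and 2.81 on control to -3.54, -3.27 and -3.63 on PGC arrays. Loxl2 was 2.91, 3.24 and 2.65 on knockdown arrays, overlapping control. Loxl1 and Tgm2 were -2.06 and -2.04 in PGCs, and no array detected Lox itself above background. Of all genes 21.9% fell in knockdown cells and 32.4% in PGCs, both against control.

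Among 10 tested genes of degradation, 4 fell and none rose in knockdown cells, where 21.9% of all genes fell and 18.2% rose. Mmp2, a gelatinase, differed by -1.95, and the metalloproteinase inhibitors Timp1 and Timp2 by -1.36 and -0.62 (adjusted p = 9.89e-05, 0.000582 and 0.00519, limma). In PGCs 7 fell and 1 rose, with Timp1 at -4.03, Timp2 at -2.71 and Mmp14, a collagenase held in the membrane, at -2.02. Of all genes 32.4% fell and 43.2% rose in PGCs against control. Of 6 tested receptors 2 rose and 2 fell in knockdown cells. The kinase Ddr2 was higher by 1.74, and Itgb1, the shared chain of collagen-binding integrins, and Adgrg1, an adhesion receptor for type III collagen, were -0.71 and -0.75 (adjusted p = 0.00704, 0.00562 and 0.0247, limma). Adgrg1 was 0.72 in knockdown cells with normexp as planned, and its call there was lost in 7 other settings and kept in 13. In PGCs Adgrg1 rose by 4.96 and the inhibitory receptor Lair1 by 1.89 (adjusted p = 1.72e-07 and 9.83e-05, limma).

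Of 11 tested matrix partners that bind collagen, 3 fell and 1 rose in knockdown cells, where 21.9% of all genes fell and 18.2% rose. The small proteoglycan Dcn was -2.89, the matrix protein Tgfbi -1.64 and Thbs1, thrombospondin, -2.66 (adjusted p = 0.000622, 0.000305 and 0.00169, limma). Thbs1 was above background on 1 knockdown array and gave 0.25 with normexp as planned. In PGCs 8 fell and 1 rose against control, where 32.4% of all genes fell and 43.2% rose. Nid1, which links type IV collagen to laminin, was -2.76, Sparc, a collagen-binding glycoprotein, -2.19, and Thbs2 not above background on any PGC array and at least 4.56-fold lower than in control cells (adjusted p = 2.87e-07, 5.93e-06 and 4.74e-07, limma). In knockdown cells these 3 differed by 0.076, -0.086 and 0.25, and none passed.

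**Figure D4:**
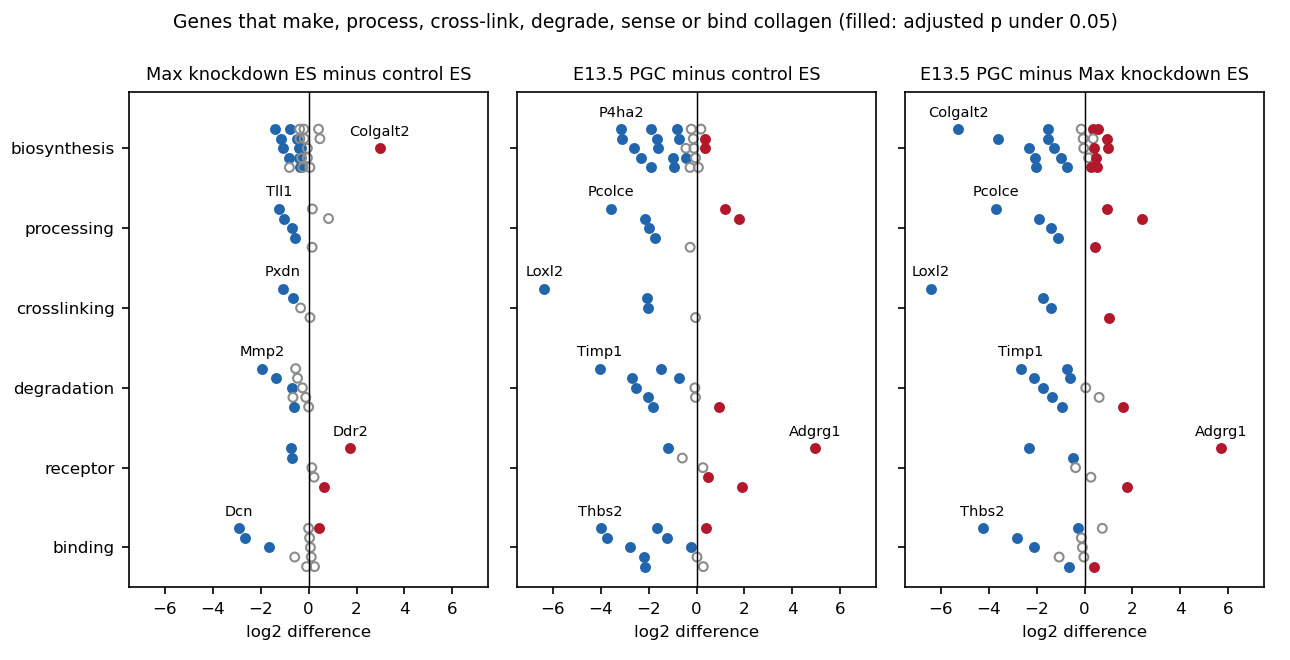
Log2 differences of the 61 tested genes that make, process, cross-link, degrade, sense or bind collagen, by role, in the 3 comparisons; each point is 1 gene, vertical offsets only separate points, filled points passed an adjusted p of 0.05 (red higher, blue lower), and the gene with the largest difference in each role is named. Most filled points lie left of 0 in knockdown cells, 25 against 4, and in PGCs against control, 36 against 9. Colgalt2 and Ddr2 lie to the right in knockdown cells, and Adgrg1 lies far to the right in PGCs but left of 0 in knockdown cells.

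Markers of other cells moved with some of these results. Their counts are to be read against all genes, of which 21.9% were lower and 18.2% higher in knockdown cells and 32.4% lower and 43.2% higher in PGCs, both against control. Of 12 tested fibroblast markers, which include the muscle-type actin Acta2, 6 fell and none rose in knockdown cells, with Acta2 at -3.84 and Tagln at -3.10 (adjusted p = 9.43e-05 and 0.000128, limma). Their summed signal, in multiples of the 75th percentile of the array, ranged from 47.2 to 54.7 in control, 35.4 to 45.1 in knockdown and 48.4 to 50.7 in PGC arrays, over 15 genes. Such a sum adds different probes and follows the brightest, here Fn1, which made up 66.6 to 78.7%, 90.6 to 92.4% and 98.1 to 98.2% of it, and without Fn1 the sums were 10 to 18.3, 3.06 to 3.80 and 0.904 to 0.970. In PGCs 11 of the 12 fell against control and 1, Fn1, rose, with a median of -2.42, Tagln at -5.97 and Thy1 at -3.14 (adjusted p = 3.20e-07 and 2.08e-06, limma). Pdgfra differed by 0.24 in knockdown cells (adjusted p = 0.626, limma), and Postn, Prrx1 and Lum were not well above background on any ES array. Fn1, Lum and Dcn of this list are also among the matrix partners above. Primitive endoderm is a cell type that makes type IV collagen, and of its 13 tested markers 9 fell and none rose in knockdown cells. Their summed signal ranged from 29.7 to 36.8 in control, 16 to 21.9 in knockdown and 18.6 to 22.2 in PGC arrays, over 14 genes, with Gata6 at -0.61 and Sox17 at -1.36 in knockdown cells (adjusted p = 0.0485 and 0.127, limma) and Ttr detected on no array. In PGCs 9 of the 13 fell and 2 rose against control, with a median of -2.69, and 8 fell and 3 rose against knockdown cells, with a median of -1.83. Against knockdown cells 31.4% of all genes were lower in PGCs and 44.9% higher. Lamb1 made up 85.7 to 88.5% of the PGC sum, and without it the sums were 19.6 to 24.6 in control, 11 to 15.6 in knockdown and 2.55 to 2.65 in PGC arrays. In PGCs 9 of 15 tested markers of somatic cells of the gonad rose and 1 fell. The somatic sum ranged from 5.42 to 6.04 in control, 5.61 to 5.95 in knockdown and 6.53 to 11.9 in PGC arrays, over 18 genes. Amh, of Sertoli cells, was at least 7.42-fold above control, Cyp11a1, of steroid-making cells, was 2.43 higher, and Sox9 differed by 0.062 (adjusted p = 1.45e-05, 0.000116 and 0.857, limma). Amh, Hsd3b1, Fgf9 and Cldn11 of this list passed the detection filter only through the PGC arrays, as did Afp of primitive endoderm and Nanos2 of germ cells. For these markers the filter itself favoured a rise in PGCs. Twist2, Dcn, Sox9 and Sox17 passed only through the control arrays, which favoured lower values in the other groups. Of 9 tested markers of endothelium and blood 3 rose and 4 fell in PGCs. Hba-a1 rose by 3.89 and Cldn5 by 2.21. Alas2, which passed the detection filter only through the PGC arrays, rose at least 3.80-fold. Egfl7, Flt1, Tek and Tie1 fell. The sums of this list were 15.4 to 16.9 in control, 11.6 to 12.9 in knockdown and 7.79 to 9.47 in PGC arrays over 14 genes. These sums follow the brightest probe, Egfl7, which averaged 3.64 in control, 3.08 in knockdown and 1.99 in PGC arrays. A lower sum thus does not mean that the other markers fell. Cdh5 was above background on 1 PGC array and Ptprc on 2. Of the germ cell markers, 6 of 8 rose in PGCs and 3 in knockdown cells, with Dazl at 5.65 and 4.50, where the germ cell sum ranged from 86.7 to 98.3 and from 24.8 to 31.8, against 10.9 to 15.9 in control arrays. Ddx4, 1 of the 3 in knockdown cells and part of that sum, has the promoter of the reporter used to sort those cells. Of 7 ES markers 3 rose in knockdown cells, Klf4 at 0.92, Tfcp2l1 at 0.87 and Sox2 at 0.57, and Nanog fell, at -0.97 (adjusted p = 0.000519, 0.00692, 0.00617 and 0.00751, limma). The Nanog probe was dim, at -4.13, -4.44 and -3.95 on control and -5.38, -4.98 and -5.05 on knockdown arrays. Only 2 of these knockdown arrays were above background, so its difference is limited by the background. In PGCs 2 ES markers rose and 4 fell. The ES sum ranged from 68.4 to 81.1 in control, 90.8 to 97.5 in knockdown and 42.1 to 50.2 in PGC arrays. The part of such cells in the collagen differences was not tested.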

How the data were processed

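RNA (100 ng) from each sample was hybridised to an Agilent single-colour array. Per the file headers, the authors' scans were read with Feature Extraction 10.7.3.1, which gives background-subtracted and detrended intensity for 43020 spots per array (design build mm9). The deposited log2 table was compared with the log2 values minus the array's 75th percentile and minus each probe's median over the 9 arrays. Array by array it correlates at 0.99994 or more with values centred in this way. Its own centring is not stated (column medians -0.12 to 0.39). The log2 of each processed intensity minus the array's 75th percentile was used. Saturated spots were absent. Each gene was shown by its probe with the highest mean, and named by accession through RefSeq: 26012 of 39364 probes gave a symbol. Genes well above background on all 3 arrays of a group (20443) were fitted with limma 3.58.1 in R 4.3.3, over all 9 arrays, with Benjamini-Hochberg adjustment. In simulated data limma was tested on known differences. The members and lists were chosen with earlier results of these data known. Named are all collagens, per pathway list and comparison up to 3 genes of smallest adjusted p, Serpinh1, P4ha1, Plod2 and Lox, and defining markers. Alternatives changed normalization, background, filter, probes, eBayes, arrays, replicate block and slide. A mean-signal column was absent, so normexp (offset 50) used median signals. The number of arrays limits the precision.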

Additional observations from a re-analysis of the deposited data

Results flagged for a closer look

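Probes that the comparisons did not use gave a signal above the control level for 2 collagens. These probes were picked for being above background on all 3 arrays of a group and on no control array. A higher signal than in control cells was thus set by the choice, and the p-values below are no independent support for it. A second Col14a1 probe was well above background on all 3 PGC arrays and on no ES array, with a measured difference from control of 2.96 and an at-least value of 5.75-fold (adjusted p = 0.000202, limma fit of single probes). A second probe of Col8a2, a short-chain collagen that was not tested by its other probe, was likewise above background on the 3 PGC arrays alone, with a measured difference of 2.10 and an at-least value of 2.90-fold (adjusted p = 0.000335, limma fit of single probes).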

How the results depend on the processing

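Dim genes have little signal over background, which limits their differences. Over 26 settings, 60 collagen differences (called or named) gave 1167 alternative values, of which 1038 kept direction and side of the threshold, 97 lost and 8 gained the call, and 24 reversed. Counts of called collagens in knockdown cells against control, PGCs against control and PGCs against knockdown cells, 12, 22 and 18, moved by over 1.5 times to 4, 8 and 6 with normexp as planned. Pathway genes, 29, 45 and 47, moved to 9, 23 and 28. Calls over all 20443 genes moved as well, from 8205, 15451 and 15593 to 882, 6012 and 7189. Knockdown 1 had 12 spots and knockdown 2 had 4 with a local background over 100. After such backgrounds were replaced, an alternative chosen after seeing the data, collagen counts were 11, 21 and 17. Over all genes 6909, 14440 and 14449 were called there. With spike-in scaling 4 collagens and 6 pathway genes were called in knockdown cells, and 14 collagens in PGCs against control. The calls over all genes were 1006 and 8623 there. Within the second slide 5 collagens and 7 pathway genes passed, with 1 array a group assumed to vary like arrays of one group and slide elsewhere. Leaving out each array in turn gave 11 to 13, 20 to 22 and 15 to 18 collagens and 22 to 29, 40 to 45 and 43 to 46 pathway genes. Over all genes these fits called 6355 to 7125, 14559 to 15116 and 14809 to 15219. All other settings kept the counts within 1.5 times. Reversed with normexp as planned were, in knockdown cells, Col16a1 0.10, Col3a1 0.17, Col17a1 0.81, Adgrg1 0.72 and Thbs1 0.25, and in PGCs against knockdown cells Col4a6 -0.32, Col6a2 -0.41, Col23a1 -0.54, Col27a1 -0.53, Col22a1 -0.26 and Lair1 -0.30. Reversed with spike-in scaling were, in PGCs against control, Col4a6 -0.044, Col6a2 -0.16, Col9a2 -0.69 and Max -0.10, and against knockdown cells Col1a2 -0.029, Col4a6 -0.056, Col6a2 -0.30, Col23a1 -0.39, Col22a1 -0.62 and Serpinh1 -0.0024. The uncalled Col16a1 difference between PGCs and knockdown cells turned to 0.11 with quantile normalization, 0.13 with high backgrounds replaced, 0.31 with mean probes, 0.13 with the replicate block and 0.17 without knockdown 4 (lowest without 1 array -0.14). Uncalled Col6a4 turned to 0.11 with high backgrounds replaced and 0.13 with mean probes, and uncalled Col6a2 in knockdown cells to -0.031 within the second slide. The cause was not tested. With the replicate number as a block 11, 23 and 17 collagens were called, and 6098, 15327 and 14724 of all 20443 genes. This block also joins PGC arrays to ES arrays of the same number, whose deviations correlated at -0.031 to 0.025. The numbers are shared by 2 pairs of control and knockdown arrays, whose deviations correlated at 0.372 and 0.393. Arrays of unlike number on the same slide correlated at -0.027 and -0.066, and control 3 with knockdown 4, the ES arrays of the second slide, at 0.508. This is a hint of pairing from the data, which the labels do not state. With these 3 pairs as a block, chosen after seeing the data, 15 collagens and 34 pathway genes were called in knockdown cells, where 44.2% of all genes were called. All 12 collagens called without it kept call and direction. Col23a1, Col25a1 and Col9a1 were added as higher, of which, by the probes tested, Col9a1 was above background on no ES array and Col25a1 on 1. Another Col23a1 probe gave -0.069 in knockdown cells without a block.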
